A study of Mus musculus with 6 samples.

Results

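The genes described here are 38 named regulators and markers of the cell division cycle, out of 54532 genes in the deposited table of mouse islet RNA. They were chosen by name: 5 G1 cyclins and kinases, 4 inhibitors of cyclin-dependent kinases (CDKs), 5 genes of the passage from G1 into S phase, 9 genes of DNA replication and 15 genes of G2 and mitosis. All 38 symbols were found, each on 1 row. The study measured messenger RNA in pancreatic islets of mice at 7 weeks of age. Of the 6 samples, 3 were labelled Wtap-βKO, a knockout of Wtap in β cells, and 3 were labelled Wtap flox/flox, which carry the floxed allele. Each sample combined islets from 3 mice, and the samples of a group were given as independent biological replicates. The labels used here name neither the Cre driver nor the deleted part of Wtap. WTAP is a subunit of the complex that writes N6-methyladenosine on messenger RNA.

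D-type cyclins with CDK4 or CDK6 start the cell cycle by phosphorylating the retinoblastoma protein, which releases E2F factors that switch on the genes of DNA replication. The INK4 and CIP/KIP inhibitors hold these kinases back, and cyclin B with CDK1 then drives mitosis until the anaphase-promoting complex destroys the cyclins. In mouse β cells, which seldom divide in the adult, cyclin D2 and CDK4 are needed for the postnatal growth of β-cell mass, and p27 and the INK4 inhibitors restrain it.

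The values are FPKM (fragments per kilobase of gene, scaled to a size set for each library), as deposited. This size differed from the recovered reads by group. It was 1.07, 1.04 and 1.04 times those reads in replicates 1, 2 and 3 labelled Wtap-βKO. In Wtap flox/flox replicates 1, 2 and 3 it was 0.988, 0.966 and 0.952 times. Median-of-ratios factors taken from the FPKM were equal in all 6 samples, so the deposited values were already level by that measure. Reads recovered from them came to between 16353297 and 18682745 per sample. Wtap itself was at 11.2, 11.9 and 12.3 FPKM in the libraries labelled Wtap-βKO, and at 10.5, 11.4 and 11.6 in the Wtap flox/flox libraries (log2 fold change 0.07, SE 0.06, limma adjusted p = 0.475). Its total was therefore not lower in the libraries that carry the knockout label, and every direction below is that of the label; reads outside the deleted part would not show a deletion. Islet identity was plain in both groups, with Ins2 between 54774 and 59463 FPKM in the libraries labelled Wtap-βKO and between 82598 and 92872 in Wtap flox/flox. The summed level of 8 β-cell markers was 81188 to 91803 against 133583 to 153510 FPKM, that of 5 α-cell markers 33740 to 44586 against 21207 to 25412, and that of 4 δ- and PP-cell markers 15032 to 27860 against 12552 to 14079. Of these, 6 of 8 β-cell markers fell, and 4 of 5 α-cell and 2 of 4 δ- and PP-cell markers rose. Ppy was not called and overlapped between groups, and its 19590 FPKM in replicate 2 labelled Wtap-βKO was the largest part of the 27860. Summed markers of cells that divide more readily were at 71.9 to 82.9 against 49.1 to 59.5 FPKM for mesenchymal cells (5 of 8 rose), 235 to 262 against 203 to 242 for endothelium (2 of 8 rose) and 119 to 133 against 100 to 110 for macrophages (1 of 8 rose). Lymphocyte markers summed to 7.24 to 7.62 against 8.41 to 9.39 FPKM (1 rose and 1 fell of 8), with Cd3e listed at 0 in some libraries of both groups. In bulk islets, fewer cells of a type and less RNA per cell cannot be told apart, and the part of this cell mixture in the results below was not tested.

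Of the 38 genes, 36 passed the filter of a mean of at least 0.5 FPKM and were tested with limma on log2(FPKM + 1), where a fold change understates that of a low gene. A gene was called at a Benjamini-Hochberg adjusted p under 0.05 over all 15927 genes tested. Ccnd2, Cdk4, Cdkn1b and Cdkn2b fell, and Cdc20 rose. These 5 are 13.9% of the 36, beside 20.1% of all genes tested. The 4 that fell are 11.1%, beside 11.3% of all genes, and the 1 that rose is 2.78%, beside 8.77%, so the cell cycle genes as a set were not called more often than genes at large. The groups did not overlap for 2 genes that were higher (5.56%, against 19.1% of all genes tested) and for 7 that were lower (19.4%, against 22.1%). The median log2 fold change of the 36 was 0.07, and that of all genes tested -0.01. Both falls among cyclins and kinases and both among inhibitors lay in G1, where 4 of 7 tested genes fell. This pools 2 roles and is a description, not a test of spread over the phases. In a further list of 23 tested G1 control genes, 4 fell (17.4%, beside 11.3% of all genes) and 1 rose (4.35%, beside 8.77%).

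**Figure D1:**
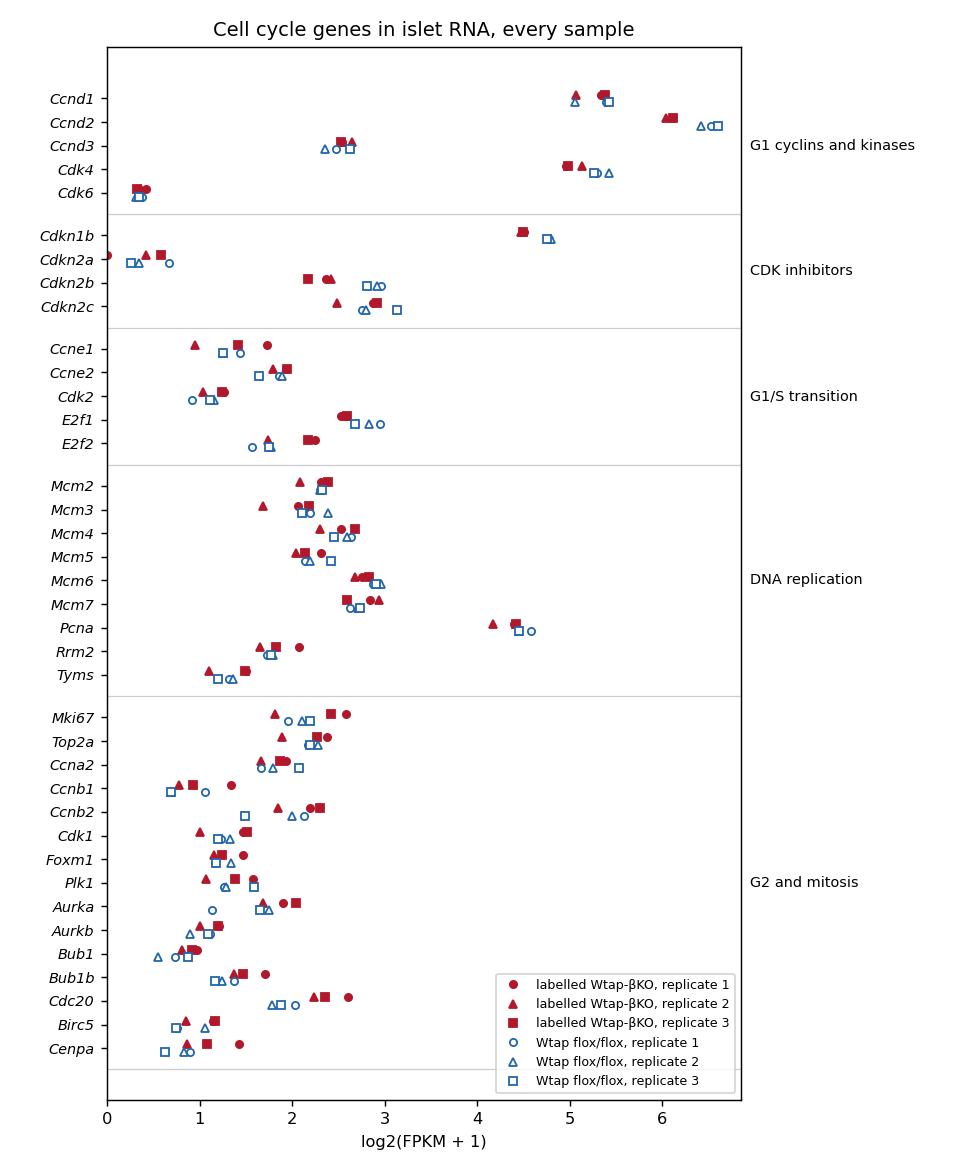
Level of each of the 38 cell cycle genes, as log2(FPKM + 1) on the horizontal axis, in the 3 libraries labelled Wtap-βKO (filled red) and the 3 Wtap flox/flox libraries (open blue), grouped by role, with a marker shape for each replicate number. The D-type cyclins Ccnd1 and Ccnd2, Cdk4, Cdkn1b and Pcna stand far above the other genes, and the triangles of replicate 2 labelled Wtap-βKO lie at the low end of their group in most replication and mitosis rows.

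Cyclin D2 was the most abundant cell cycle regulator of the list per length and fell in the libraries labelled Wtap-βKO, while cyclin D1 and cyclin D3, its close relatives, passed no test. Ccnd2 (chromosome 6, 127125162 to 127152193, minus strand of GRCm38) stood at 68.3, 65.0 and 68.4 FPKM in the libraries labelled Wtap-βKO, against 90.8, 84.4 and 96.4 FPKM in Wtap flox/flox. The groups did not overlap, and the spread within the libraries labelled Wtap-βKO was narrow (67.2 ± 1.93 against 90.5 ± 6.04, SD, n = 3 each). The log2 fold change was -0.42 (SE 0.06, limma adjusted p = 0.00601). Ccnd1 was at 39.4, 32.6 and 40.8 FPKM in the libraries labelled Wtap-βKO, against 41.0, 32.3 and 42.0 FPKM in Wtap flox/flox, so that the groups lay on top of each other and the replicates numbered 2 were low in both. Its log2 fold change of -0.03 had a 95% interval of -0.32 to 0.27. Ccnd3 was far lower, at 4.81, 5.24 and 4.77 FPKM against 4.55, 4.10 and 5.18 FPKM, with a log2 fold change of 0.09 and an interval of -0.12 to 0.30. Ccnd3 overlaps Bysl on the opposite strand, at a mean of 4.60 FPKM, so the level of Ccnd3 is uncertain.

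The makeup of the D-type cyclin messages differed between the groups. Ccnd2 supplied 60.7%, 63.2% and 60.0% of the summed D-type cyclin FPKM in the libraries labelled Wtap-βKO, against 66.6%, 69.9% and 67.1% in Wtap flox/flox. The sum of all D-type cyclins was 110 ± 6.06 FPKM in the libraries labelled Wtap-βKO and 134 ± 11.7 FPKM in Wtap flox/flox (SD, n = 3 each). These sums share the fall of Ccnd2 and are given as a description.

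Cdk4, the kinase that cyclin D2 activates in β cells, also fell, but less and with less certainty. It was at 30.1, 34.0 and 30.6 FPKM in the libraries labelled Wtap-βKO, against 38.2, 41.8 and 37.2 FPKM in Wtap flox/flox. The highest library labelled Wtap-βKO thus stayed below the lowest Wtap flox/flox library. The log2 fold change was -0.30 (SE 0.07, limma adjusted p = 0.0271). The call was lost without replicate 1 or replicate 3 labelled Wtap-βKO (adjusted p = 0.077 and 0.0869 in limma) and without Wtap flox/flox replicate 1, 2 or 3 (0.0707, 0.0868 and 0.0537). Cdk4 overlaps Tspan31 on the opposite strand, which averaged 19.3 ± 0.808 against 18.5 ± 1.44 FPKM, and the libraries do not mark strand. Cdk6, the other partner of D-type cyclins, was under the filter with 221 reads over the 3 libraries labelled Wtap-βKO (exact Poisson 95% interval 193 to 252) and 196 over the 3 Wtap flox/flox libraries (170 to 225), which covers counting error only. Per length, Cdk4 exceeded Cdk6 by 88.3, 120 and 123 times in the libraries labelled Wtap-βKO and by 126, 171 and 136 times in Wtap flox/flox.

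**Figure D2:**
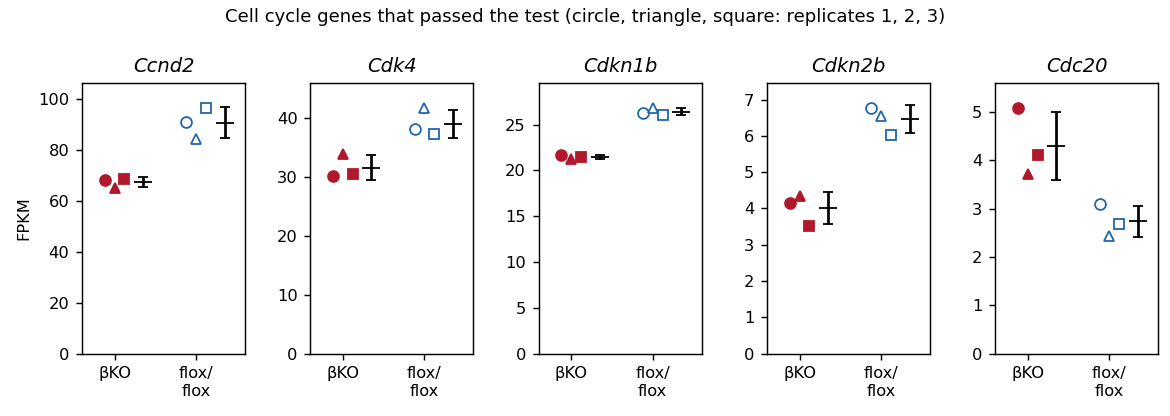
FPKM of the 5 cell cycle genes that passed the test, in the 3 libraries labelled Wtap-βKO (βKO, filled red) and the 3 Wtap flox/flox libraries (open blue), with the mean and SD of each group beside the points. The groups do not overlap in any panel; Ccnd2, Cdk4, Cdkn1b and Cdkn2b are lower and Cdc20 is higher in the libraries labelled Wtap-βKO.

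Of the 3 tested inhibitors among the members, Cdkn1b and Cdkn2b fell as well and Cdkn2c was not called. The inhibitors did not fall as a class, since Cdkn2d, of a further list given below, rose. Cdkn1b, which encodes the CIP/KIP inhibitor p27, was at 21.7, 21.3 and 21.5 FPKM in the libraries labelled Wtap-βKO, against 26.3, 26.8 and 26.1 FPKM in Wtap flox/flox. Within each group the replicates differed by less than 1 FPKM, so that a modest difference stood far outside the spread (log2 fold change -0.29, SE 0.05, limma adjusted p = 0.00793). Cdkn2b, which encodes the INK4 inhibitor p15, was at 4.16, 4.34 and 3.5 FPKM in the libraries labelled Wtap-βKO, against 6.77, 6.56 and 6.03 FPKM in Wtap flox/flox. This was the largest fall among the 36 tested genes, with a mean 1.61-fold lower (log2 fold change -0.58, SE 0.09, limma adjusted p = 0.00604). Cdkn2c, which encodes p18, overlapped between groups at 6.34, 4.60 and 6.52 against 5.74, 5.96 and 7.76 FPKM (log2 fold change -0.14, 95% interval -0.49 to 0.21).

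Cdkn2a lies next to Cdkn2b on chromosome 4 and encodes the inhibitor p16, whose rise with age limits β-cell division in mice, and also p19Arf. Cdkn2a was barely detected in either group. It had 0, 7 and 10 reads in the libraries labelled Wtap-βKO and 12, 5 and 4 reads in Wtap flox/flox. The totals of 17 (exact Poisson 95% interval 9.90 to 27.2) and 21 (13.0 to 32.1) overlap, and a difference was not detectable at this depth. Together the summed D-type cyclins stood at 5.18, 4.83 and 5.31 times the Cdkn1b level in the libraries labelled Wtap-βKO, against 5.19, 4.50 and 5.51 times in Wtap flox/flox. These ratios overlapped between the groups.

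At the G1/S transition the E2F factors differed in sign, and neither was called. E2f1, an activator of replication genes, was at 4.74, 4.98 and 5.02 FPKM in the libraries labelled Wtap-βKO, against 6.73, 6.12 and 5.40 FPKM in Wtap flox/flox. The groups did not overlap, but the adjusted p of limma was 0.0749 (log2 fold change -0.26, SE 0.08), and 0.0496 among protein-coding genes alone. E2f2, its relative, was at 3.74, 2.33 and 3.5 against 1.95, 2.41 and 2.36 FPKM, so that 2 of 3 libraries labelled Wtap-βKO were above every Wtap flox/flox library and replicate 2 was not. Its log2 fold change was 0.36 (SE 0.15, limma adjusted p = 0.136). The cyclin E genes and their kinase Cdk2 were low in both groups. Ccne1 was at 2.31, 0.923 and 1.66 against 1.69, 1.38 and 1.37 FPKM, Ccne2 at 2.81, 2.46 and 2.85 against 2.61, 2.72 and 2.11, and Cdk2 at 1.40, 1.05 and 1.37 against 0.890, 1.23 and 1.16. Their log2 fold changes ran from 0.05 to 0.12. Ccne2 overlaps Ints8 on the opposite strand, at a mean of 5.55 FPKM, so the level of Ccne2 is uncertain. None of the 5 genes was called by limma or by limma's voom on the recovered reads. In limma 2, E2f1 and E2f2, had an unadjusted p under 0.05, with no count over all genes taken beside them.

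None of the 9 DNA replication genes was called by limma or by limma's voom. None had an unadjusted p under 0.05 in limma, where again no count over all genes was taken. Pcna, the sliding clamp of DNA polymerase, was the most abundant, at 20.1, 16.9 and 20.4 FPKM in the libraries labelled Wtap-βKO, against 22.9, 20.9 and 20.9 FPKM in Wtap flox/flox. Mcm6, a subunit of the replicative helicase, was at 5.76, 5.39 and 6.13 against 6.30, 6.76 and 6.51 FPKM. Pcna and Mcm6 were the replication genes whose groups did not overlap, with log2 fold changes of -0.16 and -0.15 and adjusted p of 0.211 and 0.157 in limma. The other helicase genes, Mcm2, Mcm3, Mcm4, Mcm5 and Mcm7, had means between 2.98 and 5.95 FPKM in the libraries labelled Wtap-βKO, against 3.70 to 5.46 in Wtap flox/flox. Of these, Mcm3 had the lowest value of any, 2.22 FPKM in replicate 2 labelled Wtap-βKO, and the widest interval (log2 fold change -0.25, 95% interval -0.60 to 0.09). Mcm7 overlaps Cops6, at a mean of 15.5 FPKM, and Ap4m1, so its level is uncertain. Rrm2 and Tyms, which make deoxynucleotides, averaged 2.63 ± 0.534 and 1.59 ± 0.386 FPKM in the libraries labelled Wtap-βKO, against 2.40 ± 0.0818 and 1.45 ± 0.143 FPKM in Wtap flox/flox (SD, n = 3 each).

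**Figure D3:**
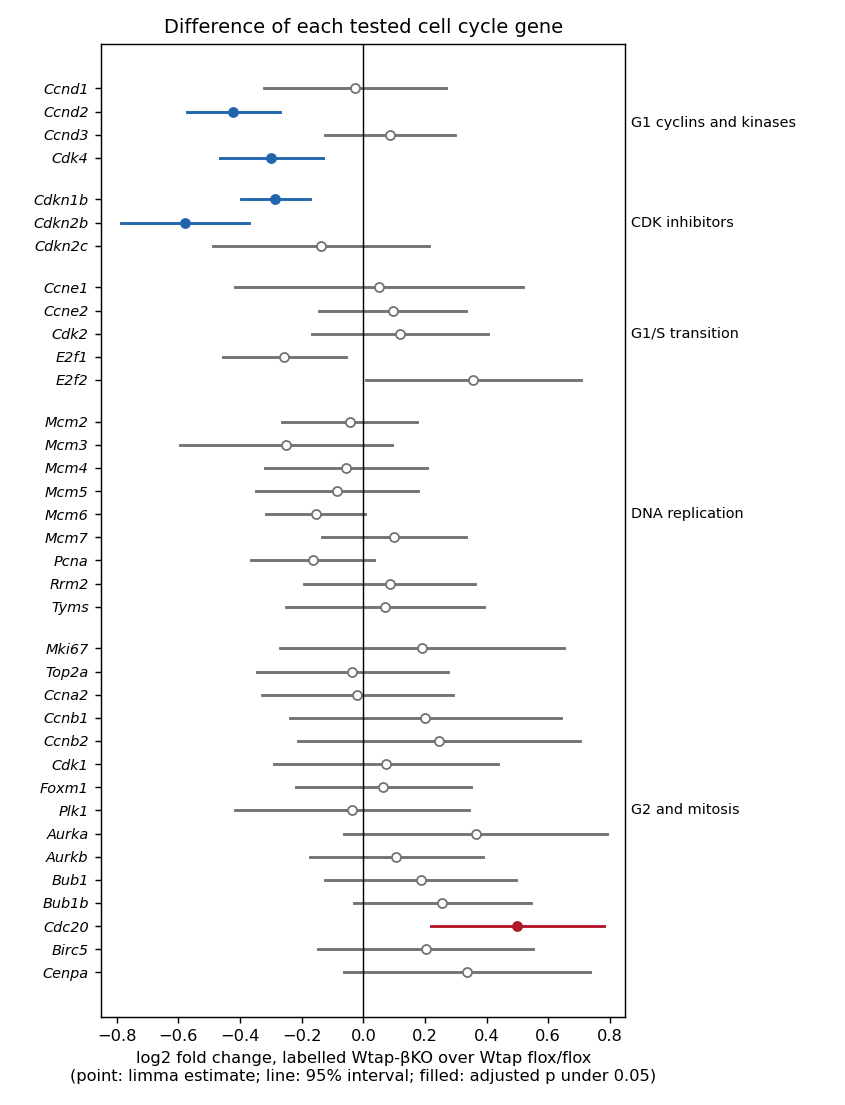
Log2 fold change of the libraries labelled Wtap-βKO over Wtap flox/flox for the 36 tested cell cycle genes (limma estimate, line for the 95% interval), grouped by role; filled points passed an adjusted p under 0.05. The 4 genes that fell sit among the G1 genes, between -0.58 and -0.29, the 9 replication genes lie between -0.25 and 0.10, and Cdc20 at 0.50 is the called mitosis gene.

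Among the 15 genes of G2 and mitosis, Cdc20 rose and 14 were not called, although 12 of the 15 estimates were above 0 and their median was 0.19. Cdc20 activates the anaphase-promoting complex, which ends mitosis by marking cyclin B for destruction. It was at 5.08, 3.71 and 4.10 FPKM in the libraries labelled Wtap-βKO, against 3.09, 2.44 and 2.68 FPKM in Wtap flox/flox, from 179, 124 and 132 reads against 101, 72 and 89. Every library labelled Wtap-βKO was above every Wtap flox/flox library, with a mean 1.57-fold higher (log2 fold change 0.50, SE 0.12, limma adjusted p = 0.0275). The call was lost without replicate 1 or 3 labelled Wtap-βKO (adjusted p = 0.066 and 0.0696 in limma), without Wtap flox/flox replicate 2 or 3 (0.0887 and 0.0822), and with no filter (0.0682). Cdc20 meets Elovl1 on the opposite strand at its end, and Elovl1 averaged 9.98 ± 0.638 against 8.19 ± 0.846 FPKM (log2 fold change 0.26, adjusted p = 0.0759).

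The proliferation markers in common use did not follow Cdc20 over the 6 samples. Mki67, which encodes the Ki-67 antigen of cycling cells, was at 4.96, 2.52 and 4.36 FPKM in the libraries labelled Wtap-βKO, against 2.86, 3.30 and 3.56 FPKM in Wtap flox/flox. Replicates 1 and 3 labelled Wtap-βKO were the highest of the 6 and replicate 2 was the lowest, and the log2 fold change of 0.19 had a 95% interval of -0.27 to 0.65. Top2a, the topoisomerase that untangles chromosomes, showed the same order within the libraries labelled Wtap-βKO, at 4.20, 2.71 and 3.81 FPKM against 3.49, 3.86 and 3.57 FPKM. Ccna2 encodes cyclin A2, whose messenger RNA is stabilized by WTAP in human endothelial cells. It was at 2.81, 2.16 and 2.66 FPKM in the libraries labelled Wtap-βKO, against 2.17, 2.45 and 3.19 FPKM in Wtap flox/flox. The groups overlapped, and the log2 fold change of -0.02 had an interval of -0.33 to 0.29. Ccna2 overlaps Exosc9 (3.61 ± 0.132 against 3.85 ± 0.140 FPKM).

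The remaining mitotic genes were low. Cdk1, the kinase of mitotic entry, was at 1.76, 0.996 and 1.85 against 1.34, 1.5 and 1.3 FPKM. Its cyclins were at 1.52, 0.715 and 0.908 against 1.08, 0.616 and 0.613 FPKM for Ccnb1, and at 3.57, 2.59 and 3.94 against 3.36, 2.98 and 1.80 FPKM for Ccnb2. All 3 genes overlapped between groups, and replicate 2 was the lowest library labelled Wtap-βKO for each. The mitotic kinase genes Plk1, Aurka and Aurkb had log2 fold changes of -0.04, 0.36 and 0.11, with 95% intervals of -0.42 to 0.34, -0.06 to 0.79 and -0.17 to 0.39. Aurka reached 2.72, 2.21 and 3.12 FPKM against 1.2, 2.35 and 2.13 FPKM, where Wtap flox/flox replicate 1 stood low. Of the spindle checkpoint kinases, Bub1b was the other mitosis gene whose groups did not overlap, at 2.27, 1.58 and 1.76 against 1.58, 1.36 and 1.25 FPKM, with a margin too small to show after rounding (log2 fold change 0.26, limma adjusted p = 0.183). Bub1 averaged 0.871 ± 0.104 against 0.649 ± 0.181 FPKM (SD, n = 3 each). Cenpa, the histone of the centromere, had a mean 1.65-fold higher, at 1.67, 0.820 and 1.11 against 0.857, 0.778 and 0.547 FPKM. It had 383 reads in the libraries labelled Wtap-βKO against 217, and was not called (adjusted p = 0.207 in limma). Birc5, which encodes survivin, averaged 1.09 ± 0.246 against 0.815 ± 0.229 FPKM, and Foxm1, a transcription factor of mitotic genes, 1.45 ± 0.283 against 1.34 ± 0.155 FPKM.

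Within the libraries labelled Wtap-βKO, most S-phase and mitosis members were low together in replicate 2. Replicate 2 was the lowest of the 3 for 15 of 15 mitosis genes, 8 of 9 replication genes and 4 of 5 G1/S genes, 31 of all 36 tested members (86.1%), while it was the lowest for 37.1% of all genes tested. Summed over the 15 mitosis genes, the level was 37.8, 24.9 and 34.0 FPKM in the libraries labelled Wtap-βKO, against 26.2, 27.0 and 26.5 FPKM in Wtap flox/flox. The Wtap flox/flox libraries thus agreed closely with each other, and the libraries labelled Wtap-βKO lay on both sides of them. In a second list of 46 tested G2 and mitosis genes that shares no gene with the 15, replicate 2 was the lowest of its group for 36 (78.3%). The sum of that list did not repeat the pattern, at 141, 129 and 145 FPKM against 144, 149 and 156 in Wtap flox/flox. That sum held Spc25, at 29.8 to 59.3 FPKM. In further lists of 43 replication and 23 G1 control genes, replicate 2 was the lowest for 23 (53.5%) and 11 (47.8%). Replicate 2 also stood apart from replicates 1 and 3 on the second principal component of all genes (-27.0, against 14.3 and 11.9), which held 16.2% of the variance. Its summed δ- and PP-cell markers were 27860 FPKM, against 15032 and 15480 in replicates 1 and 3, and its ductal markers 39.0 against 27.1 and 24.4. The largest part of the δ- and PP-cell excess was Ppy, at 19590 FPKM against 9428 and 8761, while Sst was at 8071 against 5422 and 6519. Other markers were low with the mitosis genes: replicate 2 was the lowest of its group for 7 of 8 mesenchymal markers (sum 71.9 FPKM, against 78.1 and 82.9) and 4 of 5 red blood cell markers (44.9, against 53.8 and 49.4). It was also the lowest for 5 of 8 endothelial markers, though their sum of 240 FPKM lay between 235 and 262, and for 5 of 8 lymphocyte markers, though their sum of 7.62 was the highest of the 3. The part of these cell types in the low mitotic level was not tested.

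**Figure D4:**
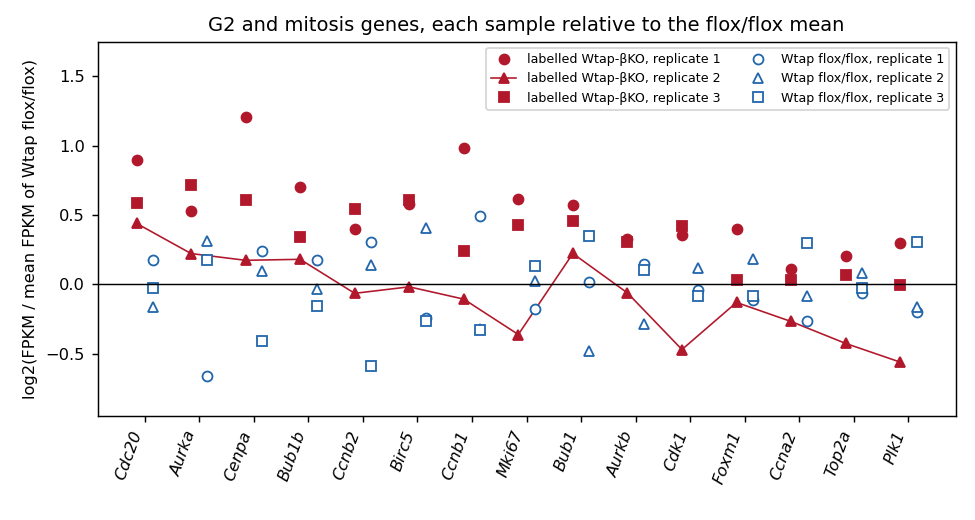
FPKM of each of the 15 G2 and mitosis genes in every library, as log2 of its ratio to the mean of the 3 Wtap flox/flox libraries (0 on the vertical axis), with genes in order of their limma log2 fold change. Replicate 2 labelled Wtap-βKO (triangles joined by a line) is the lowest of its 3 libraries for every gene, and its summed level of 24.9 FPKM is below the 26.2 to 27.0 FPKM of the Wtap flox/flox libraries, while replicates 1 and 3 sum to 37.8 and 34.0 FPKM.

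Without replicate 2 labelled Wtap-βKO, the 4 genes that fell were still called and 3 rose. All 15 mitosis genes then had an estimate above 0, with a median of 0.30, against -0.01 for all genes tested. Replicate 2 was the lowest of its group for each of the 15, so leaving it out could only raise their estimates. Mki67 rose (log2 fold change 0.42, limma adjusted p = 0.0388), as did E2f2 (0.51, adjusted p = 0.0198) and Cdc20 (0.58, adjusted p = 0.0237). The 3 are 8.33% of the members, beside 8.66% of all genes called higher in the same samples, and the 4 lower are 11.1%, beside 11.5%. For 10 of the 15 mitosis genes both remaining libraries labelled Wtap-βKO were above all Wtap flox/flox libraries, which held for 24.7% of all genes tested. Of the other 46 G2 and mitosis genes, 37 had an estimate above 0 in this fit (median 0.20). It called Ccnf, Cenpf, Spc24 and Cit higher and Lin37 and Spc25 lower. These calls and contrasts rest on 2 libraries of the group. Replicate 2 was singled out after its low values were seen, so the contrasts of the mitosis genes with all genes were partly built in.

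The promoters of the mitotic genes share sequence elements that the choice of genes did not use. Known regulators bind cell cycle promoters at E2F sites and, for mitotic genes, at the cell cycle homology region (CHR) and nearby CCAAT boxes. RefSeq promoter windows on GRCm38.p6, from 250 bases before to 50 after a gene's start, were matched for 31 of the 38 genes in 36 windows, among 32851 windows in all. The letters searched on both strands were TTTCGCGC, TTTGGCGC and TTTCCCGC for E2F, TTTGAA and TTCGAA for the CHR, and CCAAT. No E2F word holds a CHR or CCAAT word, though E2F words on opposite strands can overlap each other. A CHR word and a CCAAT box were both present in 10 of 12 windows of mitosis genes (83.3%), against 7.52% of all windows. E2F words were in 4 of 9 windows of replication genes (44.4%), against 1.84% of all windows. Below are the windows of Cdc20, which rose, of Cdk1, which was not called, of Mcm6, a replication gene, and of Cdkn2b, which fell, with the searched words on either strand in capitals. They lie on the minus strand at chr4:118437294-118437593 (Cdc20), chr10:69352863-69353162 (Cdk1), chr1:128359656-128359955 (Mcm6) and chr4:89310983-89311282 (Cdkn2b).
Cdc20: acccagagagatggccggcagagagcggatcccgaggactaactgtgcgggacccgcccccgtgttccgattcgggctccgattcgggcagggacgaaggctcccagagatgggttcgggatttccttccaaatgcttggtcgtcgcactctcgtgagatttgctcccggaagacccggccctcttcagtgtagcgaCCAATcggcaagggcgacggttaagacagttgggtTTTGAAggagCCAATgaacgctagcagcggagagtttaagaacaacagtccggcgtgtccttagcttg
Cdk1: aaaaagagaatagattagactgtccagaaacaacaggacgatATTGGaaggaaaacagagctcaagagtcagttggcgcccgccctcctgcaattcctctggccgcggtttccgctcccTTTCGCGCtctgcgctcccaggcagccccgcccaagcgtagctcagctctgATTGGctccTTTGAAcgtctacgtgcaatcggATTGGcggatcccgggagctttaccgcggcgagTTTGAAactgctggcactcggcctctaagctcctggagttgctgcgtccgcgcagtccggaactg
Mcm6: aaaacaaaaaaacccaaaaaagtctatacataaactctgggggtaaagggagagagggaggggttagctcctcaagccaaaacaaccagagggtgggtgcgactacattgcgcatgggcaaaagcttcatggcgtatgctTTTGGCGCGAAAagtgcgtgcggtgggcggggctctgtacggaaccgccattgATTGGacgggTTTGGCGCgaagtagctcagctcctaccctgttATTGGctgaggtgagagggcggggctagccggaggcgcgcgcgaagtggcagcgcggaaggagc
Cdkn2b: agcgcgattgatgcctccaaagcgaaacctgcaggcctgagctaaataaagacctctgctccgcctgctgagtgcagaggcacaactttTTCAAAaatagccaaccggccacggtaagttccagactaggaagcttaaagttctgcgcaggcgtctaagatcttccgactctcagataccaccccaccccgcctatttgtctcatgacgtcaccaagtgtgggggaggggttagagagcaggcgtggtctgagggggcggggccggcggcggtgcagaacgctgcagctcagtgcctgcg
The Cdc20 window holds a CHR word beginning 18 bases before the start and CCAAT boxes 53 and 8 bases before it. Cdk1 holds CHR words and CCAAT boxes as well, and an E2F word beginning 131 bases before the start, and was not called. Mcm6 holds E2F words beginning 110, 106 and 47 bases before the start, of which the upstream pair overlap on opposite strands. Cdkn2b holds 1 CHR word, 161 bases before its start, and neither of the others in these letters. A match is a description of letters, not of a bound site.

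Beyond the 38 genes, 122 further cell cycle genes were examined, of which 112 were tested. Of these 2 rose and 7 fell, 1.79% and 6.25% of the list, beside 8.77% and 11.3% of all genes tested, and the median log2 fold change was 0.04. Of 23 tested genes of G1 control, 1 rose and 4 fell. The gene that rose was Cdkn2d, which encodes the INK4 inhibitor p19, at 14.4, 14.9 and 15.5 FPKM in the libraries labelled Wtap-βKO, against 11.9, 11.4 and 12.0 FPKM in Wtap flox/flox (log2 fold change 0.32, limma adjusted p = 0.0103). Cdkn2d thus rose where Cdkn2b fell, and the groups did not overlap for either. Myc, which drives entry into the cycle, was at 3.22, 2.71 and 3.44 FPKM against 5.36, 4.01 and 5.30 FPKM (log2 fold change -0.51, adjusted p = 0.0273). Ccnh, the cyclin of the CDK-activating kinase, and Tfdp1, the partner of E2F factors, fell by 0.34 and 0.25 on the log2 scale (adjusted p = 0.0228 and 0.0339). Rb1, which encodes the retinoblastoma protein and was named after its values were seen, made the fourth fall. The calls of Myc, Ccnh and Tfdp1 were lost in 7, 4 and 10 of 19 alternative fits, and Cdkn2d kept its call in all 19. Single libraries were enough: leaving out any 1 but Wtap flox/flox replicate 2 lost Myc, any 1 but replicate 2 labelled Wtap-βKO lost Tfdp1, and replicate 3 labelled Wtap-βKO or Wtap flox/flox replicate 1 or 2 lost Ccnh.

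Of 43 tested further replication genes, Rpa1, which coats single-stranded DNA, rose and Orc3 and Pola2, of the origin complex and the primase complex, fell. Their log2 fold changes were 0.20, -0.34 and -0.40, and each lost its call in 9 of 19 alternative fits, Rpa1 without any 1 library and Orc3 and Pola2 without any 1 but replicate 3 labelled Wtap-βKO.

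Of 46 tested further G2 and mitosis genes, none rose and Spc25 fell in limma. Voom called 4 higher and 2 lower, beside 1854 higher and 2244 lower of all 15927 genes tested. At an unadjusted p under 0.05 in limma, 5 were higher and 2 lower, with no count over all genes taken beside them. Spc25, a subunit of the Ndc80 complex of the kinetochore, was at 29.8, 32.9 and 35.3 FPKM in the libraries labelled Wtap-βKO, against 47.1, 50.7 and 59.3 FPKM in Wtap flox/flox (log2 fold change -0.66, limma adjusted p = 0.00604). This level was out of keeping with its partners in the complex: Spc24 averaged 3.79 against 2.34 FPKM, Nuf2 0.670 against 0.418 FPKM, and Ndc80 0.382 against 0.427 FPKM. In the table the next gene to Spc25 on chromosome 2 is G6pc2, the islet glucose-6-phosphatase, 4878 bases away on the opposite strand. G6pc2 averaged 418 ± 37.4 FPKM in the libraries labelled Wtap-βKO and 1018 ± 143 FPKM in Wtap flox/flox (SD, n = 3 each). Its part in the Spc25 values was not tested. Ccnf, the cyclin F gene, averaged 1.74 ± 0.262 against 1.05 ± 0.175 FPKM with no overlap and an adjusted p of 0.051 in limma. Racgap1, of the cleavage furrow, averaged 2.55 ± 0.231 against 3.17 ± 0.0834 FPKM and was not called.

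**Figure D5:**
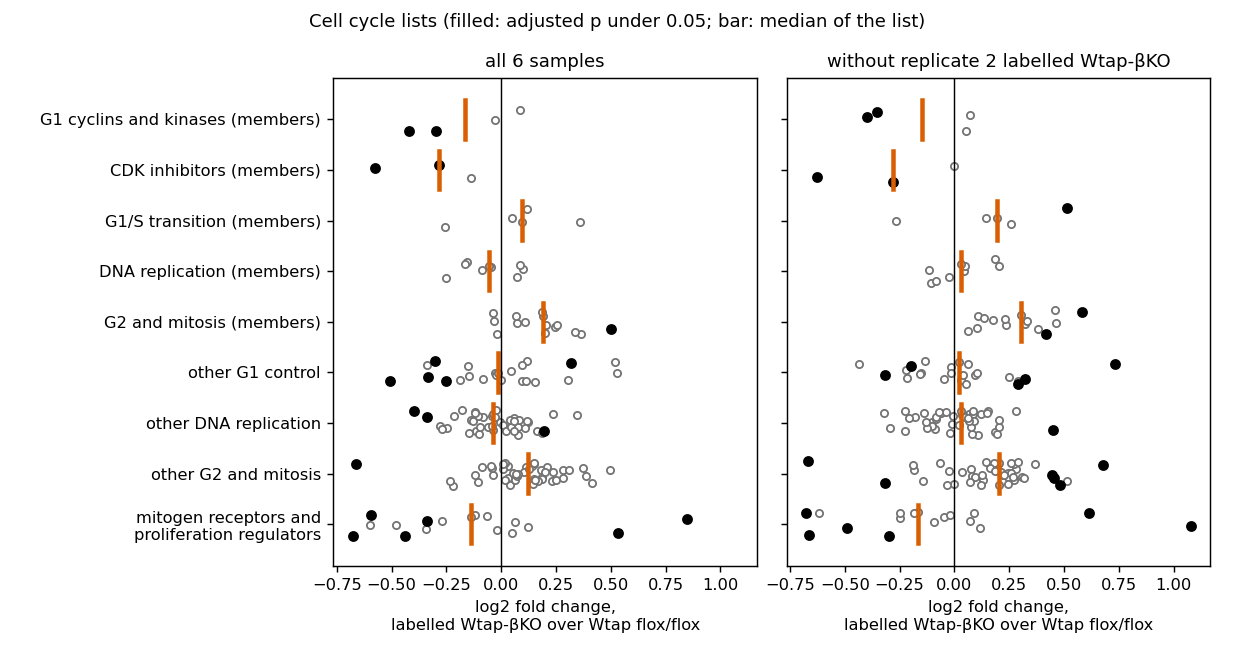
Log2 fold change of the libraries labelled Wtap-βKO over Wtap flox/flox for each tested gene of the member roles and the further lists (horizontal axis), with all 6 samples on the left and without replicate 2 labelled Wtap-βKO on the right; filled points passed an adjusted p under 0.05 and orange bars are list medians. The median of the 15 mitosis genes is 0.19 on the left and 0.30 on the right, and that of the further mitosis genes 0.12 and 0.20, while the G1 cyclin and inhibitor medians stay below 0.

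Receptors and signalling genes that act on β-cell division were also examined. Of 17 tested, Irs2 and Met rose (11.8%, beside 8.77% of all genes tested) and Igf1r, Egfr, Bmi1 and Akt1 fell (23.5%, beside 11.3%), and the difference from genes at large was not tested. Igf1r, the receptor of insulin-like growth factor, was at 4.88, 4.74 and 4.92 FPKM in the libraries labelled Wtap-βKO, against 9.14, 8.07 and 7.91 FPKM in Wtap flox/flox (log2 fold change -0.68, limma adjusted p = 0.00168). Akt1, a kinase downstream of it, was at 31.8, 35.2 and 30.9 against 46.7, 42.9 and 44.1 FPKM (log2 fold change -0.44, adjusted p = 0.00601). The groups did not overlap for either gene, and both kept their calls in all 19 alternative fits. Irs2, the adaptor between these receptors and the kinase, averaged 29.2 against 15.4 FPKM, and Met, the receptor of hepatocyte growth factor, 5.06 against 3.18 FPKM (log2 fold changes 0.85 and 0.53). Egfr, the receptor of epidermal growth factor, was at 0.782, 1.03 and 0.630 against 1.64, 1.84 and 1.70 FPKM, a mean 2.12-fold lower (limma adjusted p = 0.0147, and 0.0556 without Wtap flox/flox replicate 2). Bmi1, a Polycomb protein that represses the Cdkn2a locus in mouse β cells, was at 13.5, 11.8 and 12.3 against 16.5, 15.5 and 16.2 FPKM (log2 fold change -0.34, adjusted p = 0.0141), while Cdkn2a stayed at the few reads given above. The call of Bmi1 was lost without replicate 3 labelled Wtap-βKO, without Wtap flox/flox replicate 1 or 3 (adjusted p = 0.0517, 0.0573 and 0.0515 in limma) and scaled to total reads (0.0646). Ezh2, of the other Polycomb complex, averaged 1.26 against 1.36 FPKM and was not called, and neither was the prolactin receptor gene Prlr, at 20.4 against 28.3 FPKM.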

How the data were processed

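Islet RNA of 6 samples was sequenced from poly-A selected, randomly primed libraries without a strand-marking step, per the labels' protocols. The authors deposited FPKM per gene with gene lengths, per the file headers. The submitters' processing notes name DESeq2 1.20.0, featureCounts 1.5.0-p3, HISAT2 2.0.5 and CASAVA, and the builds mm10 and GRCm38, without saying what each was used for; how overlapping reads were assigned is not stated there. Without strand, reads of overlapping genes cannot be told apart. FPKM times gene length gave whole reads within 0.01 for each sample, 16353297 to 18682745 in all.

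The deposited FPKM were tested without further scaling, with limma 3.58.1 in R 4.3.3 (variance trend, Benjamini-Hochberg adjustment) on log2(FPKM + 1). Of the 15927 genes with a mean of at least 0.5 FPKM, 1397 were higher and 1798 lower. On simulated data with these group sizes, 66 of 97 genes changed 2-fold and 24 of 100 changed 1.5-fold were called, as were 11 of 15743 unchanged genes. The simulation gave every gene the same spread between replicates and held no outlying library. These rates therefore need not hold for genes that vary more, such as the mitosis genes. The members and lists were chosen with earlier results of these data known. All members may be named; of each further list the rule names up to 4 genes averaging at least 1 FPKM, taken in order of adjusted p, and Irs2, Met, Prlr, Ezh2, Rb1 and neighbouring genes were named beyond it; a gene the rule would name among the replication genes is not reported here. The alternatives changed pseudocount, filter, scaling, variance model, test, design, gene set and samples. Counts of reads and Poisson intervals cover counting error only.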

Additional observations from a re-analysis of the deposited data

How the results depend on the processing

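In 19 alternative fits, Ccnd2, Cdkn1b and Cdkn2b kept their calls, with adjusted p up to 0.0291, 0.0474 and 0.0292 in limma. Among the 19, median-of-ratios scaling could only repeat the main fit, because its factors were 1 in every sample. Cdk4 lost its call in 6, among them scaling to total recovered reads (adjusted p = 0.0949), and Cdc20 in 5. E2f1, E2f2 and Mki67 were called in 1 or more, and 28 members in none. No called direction turned, and 11 uncalled members changed sign in some fit. Scaling to total reads moved the median log2 fold change of all genes to 0.08 and their calls to 2334 higher and 1094 lower. Leaving out 1 sample gave 774 to 1379 higher and 1020 to 1834 lower over all genes, and 0 to 3 members higher. Members higher numbered 0 with no filter. The further cell cycle genes, 2 higher and 7 lower, gave 1 and 2 with no filter, 5 and 1 scaled to total reads, 4 and 4 with no variance trend, and 1 to 8 and 1 to 4 with 1 sample left out. They gave 9 higher with voom, 7 higher among protein-coding genes and 3 lower rescaled without the 50 highest genes. The cause was not tested.

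Same-numbered samples deviated together at r = 0.0293, 0.0377 and 0.0185, under 0.1, so the numbers were not taken to pair the samples, although each sample correlated best with its own number. With the replicate block, 1148 genes were higher and 1490 lower, 1 member was higher and 4 lower, and 1 further gene was higher. Depth limits Cdk6, Cdkn2a and mitosis genes near 1 FPKM.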
